A study of Rattus norvegicus with 2 samples.

Results

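The genes of the insulin-like growth factor (IGF) system were examined in single cells of the rat carotid artery. They comprised the ligands Igf1 and Igf2, the receptor gene Igf1r, and the binding-protein genes Igfbp2, Igfbp3, Igfbp4, Igfbp5, Igfbp6 and Igfbp7. These 9 genes were picked by their symbols from the 32623 genes listed in the count matrix, and all 9 were found. Both libraries held the RNA of whole carotid arteries from Sprague-Dawley rats, labelled 12 weeks old, digested with enzymes and run on the 10x Genomics platform. The control group was the left artery, with no treatment, and the case group was the right artery of the same rats, taken 28 days after balloon injury. Each library pooled the arteries of 2 rats, so rats could not be told apart and each group was 1 library with no replicate. For that reason no p-value is given between the groups, and all intervals cover counting error only.

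IGF1 and IGF2 are secreted growth factors that bind the receptor tyrosine kinase IGF1R, which signals through the IRS adaptors, PI3-kinase and AKT. The binding proteins hold the ligands outside the cell with high affinity, so that they can carry or store a ligand, or keep it from the receptor, until a protease cuts them. IGFBP7 is a related secreted protein with low affinity for IGFs. In the vessel wall IGF1 is known as a growth and survival factor of vascular smooth muscle cells (VSMCs).

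The control library had 3321 barcodes and 24968329 unique molecular identifiers (UMIs, the counted molecules), and the case library had 5656 barcodes and 28232614 UMIs. After filtering, 2229 control and 4890 case cells remained, with a median of 10919 and 5174 UMIs per cell, so control cells had more UMIs each. Barcodes were assigned to the groups by the numbers of cells that the study's methods state, since the barcode labels name no group, and directions below rest on that assignment. A total of 21 barcode sequences occurred in both libraries, 5 of them among kept cells. Cells were put in 5 classes by the summed level of marker genes, which gave 1160 control and 2610 case smooth muscle-like cells, 739 and 1481 fibroblast-like cells, 55 and 232 endothelial-like cells, 36 and 94 macrophage-like cells, and 22 and 58 Schwann-like cells. All 6 of 6 smooth muscle markers were detected in smooth muscle-like cells, and 7 of 8 fibroblast markers in fibroblast-like cells. The remaining marker, Col1a2, is not among the genes listed in the matrix, so it could not be counted. These markers also set the classes, so finding them there is no separate support for the class names. A further 308 cells scored for both smooth muscle and fibroblast markers and were kept apart, and 324 cells entered no class.

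Igfbp2 and Igfbp5 are immediate neighbours on rat chromosome 9, on opposite strands, and Igfbp3 lies next to Igfbp1 on chromosome 14 (RefSeq, GRCr8). Igf1 and Igfbp6 lie on chromosome 7, Igf2 and Igf1r on chromosome 1, Igfbp4 on chromosome 10 and Igfbp7 on chromosome 14. The sequences of 3 promoters are shown, because Igfbp2 and Igfbp5 are neighbours with their highest levels in different cell classes, and because Igfbp7 had its highest level in the same class as Igfbp2. Each is the 250 bases before the RefSeq start in GRCr8, in the direction of the gene, and capitals mark the motif GGGCGG on either strand. Igfbp2 is at chr9:81864561-81864810 on the plus strand, Igfbp5 at chr9:81914188-81914437 on the minus strand and Igfbp7 at chr14:31091486-31091735 on the plus strand.
Igfbp2: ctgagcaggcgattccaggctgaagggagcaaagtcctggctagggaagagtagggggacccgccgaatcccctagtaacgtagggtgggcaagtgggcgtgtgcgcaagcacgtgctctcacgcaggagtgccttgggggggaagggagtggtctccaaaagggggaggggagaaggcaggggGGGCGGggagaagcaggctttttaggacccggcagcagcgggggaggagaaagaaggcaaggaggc
Igfbp5: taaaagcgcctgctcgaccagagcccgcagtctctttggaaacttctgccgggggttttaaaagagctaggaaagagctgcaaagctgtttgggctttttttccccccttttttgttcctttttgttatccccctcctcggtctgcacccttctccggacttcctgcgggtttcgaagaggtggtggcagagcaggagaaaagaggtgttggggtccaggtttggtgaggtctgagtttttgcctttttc
Igfbp7: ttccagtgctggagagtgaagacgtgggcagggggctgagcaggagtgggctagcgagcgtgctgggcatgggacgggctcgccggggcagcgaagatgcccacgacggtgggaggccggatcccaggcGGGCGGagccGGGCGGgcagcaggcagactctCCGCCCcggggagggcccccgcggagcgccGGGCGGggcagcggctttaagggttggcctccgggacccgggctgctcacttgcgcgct

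The TATA box motif TATAAA, the SP1-type motif GGGCGG, the CAAT box motif CCAAT and the CArG box (the site bound by serum response factor) were searched on both strands, and no matches overlapped. Igfbp7 held GGGCGG 4 times, at 121, 111, 89 and 59 bases before the start, and its promoter had a GC content of 74.4%. Igfbp2 held it 1 time, 66 bases before the start, with a GC content of 64.0%. Igfbp5 held none of the 4 motifs and had a GC content of 51.6%. Among the 10 promoters of the 9 genes, TATAAA was found in Igfbp4, 40 bases before the start, a CArG box in 1 of the 2 Igf2 promoters, 110 bases before the start, and GGGCGG also in the other Igf2 promoter and in Igf1r. Of 33465 rat promoters of this length, 30.5% held GGGCGG and 12.9% held TATAAA, while 34.0% held CCAAT and 1.5% the CArG box. These matches describe letters and are no evidence of binding.

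The unit of level is CPM, counts per 1000000 UMIs summed over the cells of a class, with exact 95% Poisson intervals. Levels are compared between classes or groups for the same gene, and not between genes. Fibroblast-like cells held 93.2% and 90.4% of all Igf1 UMIs of kept control and case cells, 88.4% and 82.1% of those of Igfbp4, 96.5% and 91.5% of Igfbp5, and 91.9% and 89.3% of Igfbp6. Smooth muscle-like cells held 92.0% and 92.9% of Igfbp2 UMIs, 78.0% and 75.6% of Igfbp7 and 70.6% and 68.6% of Igf1r. Of kept control and case cells, 52.0% and 53.4% were smooth muscle-like and 33.2% and 30.3% fibroblast-like, and smooth muscle-like cells were not the class with the highest Igf1r level. For Igf2 and Igfbp3 the highest level was in endothelial-like cells, although fibroblast-like cells, which were more numerous, held 57.7% and 55.0% of Igf2 UMIs and 43.3% and 44.9% of Igfbp3 UMIs. The Igf2 level of control endothelial-like cells came mostly from 2 cells.

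**Figure D1:**
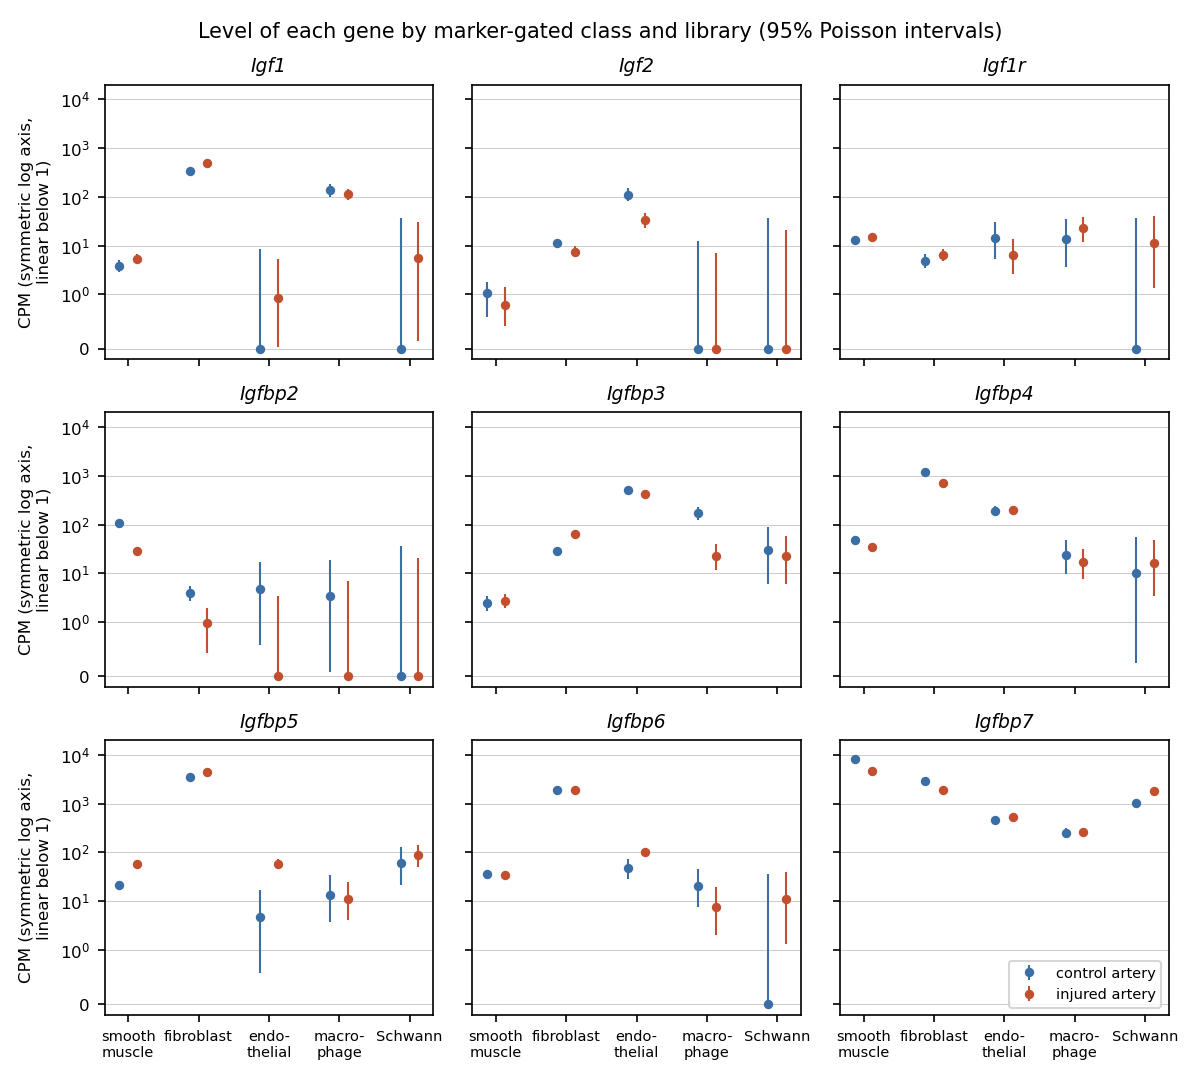
CPM of the 9 genes in the 5 marker-gated classes, on a symmetric log axis that is linear below 1, with points for the control artery (blue) and the injured artery (red) and bars for 95% Poisson intervals. Igf1, Igfbp4, Igfbp5 and Igfbp6 were highest in fibroblast-like cells of both libraries, Igfbp2 and Igfbp7 in smooth muscle-like cells, and Igf2 and Igfbp3 in endothelial-like cells. The control point of Igf2 in endothelial-like cells rests mostly on 2 cells.

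Free RNA in droplets puts UMIs of a gene into cells that do not express it. As a comparator, the markers of the class in which each gene was highest were summed in every other class. Fibroblast markers in smooth muscle-like cells reached 6.77% of their fibroblast level in the control and 7.31% in the case group, while in fibroblast-like cells smooth muscle markers reached 3.32% and 4.06% of their smooth muscle level. The fibroblast markers reached less in macrophage-like cells (0.610% and 0.607%) and endothelial-like cells (1.45% and 0.878%). Whether smooth muscle-like cells express these markers themselves was not tested. From a share at or under that of the markers, neither expression by the class nor its absence is read here.

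Igf1 encodes the main postnatal IGF ligand. In fibroblast-like cells it had 331 CPM (319 to 344, 2764 UMIs) in the control and 492 CPM (477 to 508, 3985 UMIs) in the case group, which is 1.49-fold higher and 0.57 on the log2 scale (0.50 to 0.64). In macrophage-like cells it had 136 CPM from 40 UMIs and 113 CPM from 60 UMIs, a log2 change of -0.28 whose interval of -0.88 to 0.34 includes 0. The level in fibroblast-like cells was 2.43 times that in macrophage-like cells in the control group (1.78 to 3.41) and 4.37 times in the case group (3.39 to 5.74).

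The macrophage level of Igf1 was far over the background. It was 41.2% and 22.9% of the fibroblast level, where fibroblast markers reached only 0.610% and 0.607% in the same cells. Smooth muscle-like cells had 3.86 and 5.35 CPM of Igf1, 1.17% and 1.09% of the fibroblast level, which is under the share of the markers. Endothelial-like cells had 0 and 1 Igf1 UMIs, and Schwann-like cells also 0 and 1. A count of 0 allows up to 8.71 CPM in the 55 control endothelial-like cells and 36.8 CPM in the 22 control Schwann-like cells.

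Igf2 encodes the fetal growth ligand, an imprinted gene that is low in most adult tissues. In endothelial-like cells it had 111 CPM (81.5 to 148) in the control and 32.8 CPM (22.8 to 45.6) in the case group, a log2 change of -1.76 (-2.43 to -1.10). These levels rest on 47 and 35 UMIs. In the control group 44 of the 47 UMIs came from 2 cells, which held 28 and 16, and without the 2 highest cells of each group 3 and 24 UMIs remained.

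The endothelial-like cells fell in 2 clusters, cluster 10 with 48 control and 124 case cells, and cluster 12 with 7 and 107. Cluster 10 had more of the endothelial gene Vwf (1359 and 1522 CPM, against 147 and 939 in cluster 12). Cluster 12 had more Plvap (1089 and 664 CPM, against 18.6 and 8.23) and Emcn, which are genes of fenestrated and capillary or venous endothelium. Cluster 12 of the case group also held 203 UMIs of Ccl21 and 73 of Prox1, known from lymphatic endothelium, with 0 UMIs of both in the 7 control cells. Igf2 lay mostly in cluster 12, with 44 of 47 control and 31 of 35 case UMIs (921 and 69.3 CPM). In cluster 10 it had 7.98 and 6.58 CPM. Endothelial-like cells were also split by a Plvap or Emcn UMI, after each cell was thinned to the same number of UMIs. The 4 control and 56 case positive cells held 0 and 2 Igf2 UMIs, and the negative cells 47 and 33. In the case group the Igf2 level in positive cells was 0.212 times that in negative cells (0.0247 to 0.829). Thinning can miss a Plvap or Emcn UMI, so negative cells may still express these genes. Fibroblast-like cells had 11.3 CPM (9.10 to 13.8) of Igf2 in the control and 7.54 CPM (5.76 to 9.68) in the case group, and smooth muscle-like cells 1.06 and 0.803 CPM. In cluster 10, which held most of the endothelial-like cells, Igf2 was thus not over the fibroblast level. No Igf2 UMI was found in macrophage-like or Schwann-like cells.

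Igf1r encodes the receptor through which both ligands signal. Its counts were low in all classes. Smooth muscle-like cells had 13.2 CPM (11.4 to 15.4, 175 UMIs) in the control and 14.9 CPM (13.0 to 17.0, 223 UMIs) in the case group, and the log2 change of 0.17 had an interval that included 0 (-0.12 to 0.47). Fibroblast-like cells had 4.91 CPM (3.52 to 6.66) and 6.42 CPM (4.80 to 8.42), less than smooth muscle-like cells of the same library beyond counting error. Endothelial-like cells had 14.2 and 6.55 CPM from 6 and 7 UMIs, macrophage-like cells 13.6 and 22.5 CPM from 4 and 12 UMIs, and Schwann-like cells 0 and 2 UMIs. The order of these classes was within counting error. An Igf1r UMI was found in 13.9% of control and 7.82% of case smooth muscle-like cells, but in 1.64% and 1.65% once each cell was thinned to 1000 UMIs.

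Of the 9 genes, 6 had a mean of at least 10 CPM in smooth muscle-like cells, and a change was counted when the CPM differed by 1.5-fold or more. Igfbp5 was higher in the case group, Igfbp2 and Igfbp7 were lower, and Igf1r, Igfbp4 and Igfbp6 were in neither group. Among all 6589 genes of the class that were as high, 5.42% were higher and 14.9% lower by that fold. The median log2 change was -0.27 over the 6 genes and -0.13 over all genes.

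Igfbp2 encodes a binding protein of IGF1 and IGF2 that also binds matrix and integrins. Smooth muscle-like cells had 107 CPM (101 to 112, 1410 UMIs) in the control and 29.1 CPM (26.4 to 32.0, 435 UMIs) in the case group, 3.67-fold lower, with a log2 change of -1.87 (-2.03 to -1.72). After thinning to 1000 UMIs per cell, 7.50% of control and 2.72% of case smooth muscle-like cells had an Igfbp2 UMI (39.9% and 11.5% without thinning). Fibroblast-like cells had 3.95 and 0.988 CPM, which is 3.70% and 3.40% of the smooth muscle level, against 3.32% and 4.06% for smooth muscle markers. Endothelial-like, macrophage-like and Schwann-like cells had 0 to 2 UMIs per library. In these 4 other classes Igfbp2 was thus near or under the share of the markers, and slightly over it in control fibroblast-like cells.

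Igfbp7 encodes a secreted matrix-associated protein. It had 141479 UMIs in kept control and 92795 in kept case cells. Its level in smooth muscle-like cells was 8350 CPM (8300 to 8399) in the control and 4691 CPM (4656 to 4726) in the case group, 1.78-fold lower, with a log2 change of -0.83 (-0.85 to -0.82). Nearly every cell had it, 99.7% of control and 99.9% of case smooth muscle-like cells. Per 10000 UMIs the median cell had 79.3 Igfbp7 UMIs in the control group (quartiles 59.5 and 97.3) and 44.5 in the case group (33.7 and 56.3). Of 2610 case cells 2515 (96.4%) lay under the control median.

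**Figure D2:**
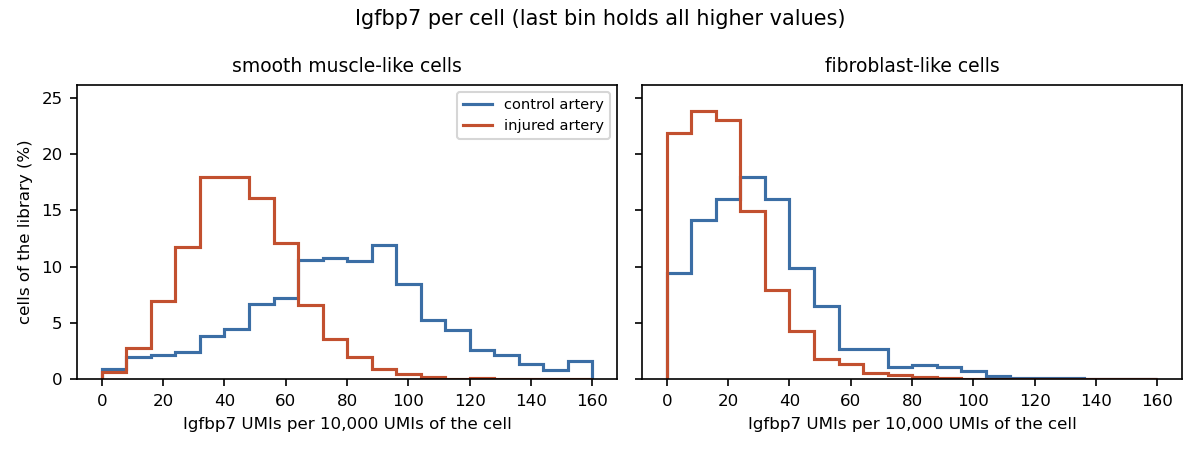
Share of cells by their Igfbp7 UMIs per 10000 UMIs, in smooth muscle-like and fibroblast-like cells of the control artery (blue) and the injured artery (red). In smooth muscle-like cells the distribution was shifted lower in the injured artery, with medians of 79.3 and 44.5, and in fibroblast-like cells the medians were 28.5 and 17.3.

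The libraries filled different clusters within the class. Cluster 3 was the largest among control smooth muscle-like cells (590 cells) and cluster 2 among case cells (977 cells). Igfbp7 and Igfbp2 were lower in the case group in each of the 5 clusters with at least 20 smooth muscle-like cells of both libraries. In cluster 3 Igfbp7 had 8833 and 5213 CPM and Igfbp2 125 and 37.4 CPM. In cluster 1, with 262 control and 867 case cells, Igfbp7 had 7608 and 4278 CPM and Igfbp2 84.4 and 24.9 CPM. Cluster 2 held only 29 control cells, where Igfbp2 had 42.0 CPM and 27.1 CPM in the case group. For Igfbp2 the interval of the log2 change included 0 in cluster 2 (-1.65 to 0.61) and in cluster 9 (-1.47 to 0.55). The log2 change over the 5 clusters ran from -0.83 to -0.58 for Igfbp7 and from -1.76 to -0.42 for Igfbp2.

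**Figure D3:**
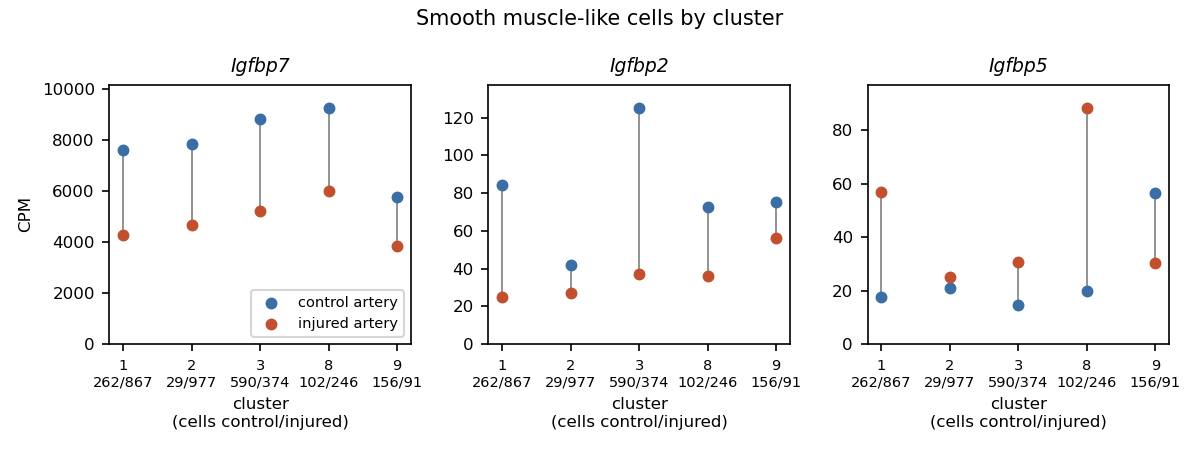
CPM of Igfbp7, Igfbp2 and Igfbp5 in smooth muscle-like cells of the 5 clusters with at least 20 of them in both libraries, for the control artery (blue) and the injured artery (red), with grey lines that join the libraries and the number of control and case cells under each cluster. Igfbp7 and Igfbp2 were lower in the injured artery in all 5 clusters, and Igfbp5 was higher in 4 of 5. In clusters 2 and 9 the counting intervals of the log2 change included 0 for Igfbp2 and for Igfbp5.

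Smooth muscle-like cells were also split by a UMI of Spp1 (osteopontin, a matrix protein linked to the synthetic state) or of Notch1 (a receptor that controls VSMC fate), after thinning to 1000 UMIs. Spp1-positive cells made up 24.7% of control and 21.6% of case cells. Igfbp7 had 8474 CPM in Spp1-positive and 8308 CPM in Spp1-negative control cells, and 4786 and 4665 CPM in the case group. Notch1-positive cells (5.26% and 6.90%) had 7517 and 4246 CPM of Igfbp7. Igfbp2 had 64.5 CPM in Notch1-positive and 109 CPM in Notch1-negative control cells, with intervals that did not overlap (48.0 to 84.8 and 104 to 115), and 27.2 and 29.2 CPM in the case group. The lower levels in the case group were thus present on both sides of each split.

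Igfbp5, which binds matrix as well as IGFs, was highest in fibroblast-like cells. In smooth muscle-like cells it had 21.5 CPM (19.1 to 24.1, 284 UMIs) in the control and 57.6 CPM (53.8 to 61.6, 861 UMIs) in the case group, 2.68-fold higher. These values were 0.614% and 1.31% of the fibroblast level, under the 6.77% and 7.31% of the fibroblast markers in the same cells. The fibroblast markers summed to 3558 and 3187 CPM, so they were not higher in the case group, and the part of free RNA in the Igfbp5 level was not tested. The Igfbp5 UMIs lay in few cells, with 81 and 39 UMIs in the 2 highest case cells and 90.2% of case UMIs in the tenth of cells with the most. Cluster 17, with 20 case and 0 control cells and the name smooth muscle from its markers, had 906 CPM of Igfbp5 (725 to 1117, 87 UMIs) and 1853 CPM of Igfbp7. The change was smaller among cells of like UMIs. In cells of 4000 to 10000 UMIs the levels were 35.4 and 46.7 CPM, a log2 change of 0.40 in place of 1.42, and in cluster 9, which has low UMIs and no name, Igfbp5 was lower in the case group (56.5 and 30.3 CPM). Igfbp4 (47.2 and 33.9 CPM) and Igfbp6 (36.1 and 34.8 CPM) were likewise under the share of the fibroblast markers in smooth muscle-like cells, and Igfbp3 had 2.42 and 2.74 CPM there.

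In fibroblast-like cells 6 of the 9 genes had a mean of at least 10 CPM. Igfbp3 was higher by 1.5-fold or more in the case group, Igfbp4 and Igfbp7 were lower, and Igf1, Igfbp5 and Igfbp6 were neither. Of the 6205 genes that were as high in this class, 6.35% were higher and 13.8% lower. The median log2 change was 0.17 over the 6 genes and -0.08 over all genes.

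Igfbp3 encodes the main carrier of IGFs in blood. In fibroblast-like cells it had 28.4 CPM (24.9 to 32.2, 237 UMIs) in the control and 63.0 CPM (57.7 to 68.7, 510 UMIs) in the case group, 2.22-fold higher, with a log2 change of 1.15 (0.92 to 1.38). These levels were 5.54% and 14.9% of those in endothelial-like cells, where endothelial markers in fibroblast-like cells reached only 0.0794% and 0.205%. Few cells held it, with 5.68% of control and 12.0% of case fibroblast-like cells at their own depth, and 1.89% and 4.32% at 1000 UMIs. Igfbp3 was higher in the case group in each of the 4 clusters with at least 20 fibroblast-like cells of both libraries, from 9.95 to 56.6 CPM in cluster 6 and from 85.5 to 129 CPM in cluster 7, but in cluster 4 the interval of the log2 change included 0 (-0.81 to 1.55). All cells of cluster 15, a small cluster with fibroblast markers (21 control and 28 case cells), went the other way, with 152 CPM (40 UMIs) in the control and 49.6 CPM (6 UMIs) in the case group.

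Igfbp4 encodes a binding protein that mostly inhibits IGF action and is cut by the protease Pappa. It had 1197 CPM (1173 to 1220, 9991 UMIs) in control and 712 CPM (693 to 730, 5760 UMIs) in case fibroblast-like cells, 1.68-fold lower, with a log2 change of -0.75 (-0.80 to -0.70). It was lower in each of the 4 clusters, from 941 to 345 CPM in cluster 7 and from 1789 to 870 CPM in cluster 6. At 1000 UMIs per cell, 59.8% of control and 42.1% of case fibroblast-like cells had an Igfbp4 UMI. In endothelial-like cells Igfbp4 had 191 CPM (152 to 238) and 201 CPM (175 to 230), 16.0% and 28.3% of the fibroblast level, against 1.45% and 0.878% for the fibroblast markers.

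Igfbp5 had 3500 CPM (3460 to 3541) in control and 4411 CPM (4365 to 4457) in case fibroblast-like cells, 1.26-fold higher, with a log2 change of 0.33 (0.31 to 0.36). The next class, Schwann-like cells, had 59.8 and 89.0 CPM, so that the fibroblast level was 58.5 and 49.6 times as high. Igfbp5 was uneven among fibroblast-like cells. The tenth of cells with the most UMIs of it held 64.9% of the UMIs in the control and 66.0% in the case group, against 34.6% and 37.3% for Igfbp6, and 47.9% and 51.2% of cells had an Igfbp5 UMI at 1000 UMIs. Within clusters it was higher in the case group in clusters 4 (3504 and 4415 CPM) and 5 (2885 and 5319 CPM), and lower in clusters 6 (4694 and 4340 CPM) and 7 (4545 and 4103 CPM).

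Igfbp6 encodes a binding protein that prefers IGF2. It had 1853 CPM (1824 to 1882) in the control and 1856 CPM (1827 to 1886) in the case group, a log2 change of 0.00 (-0.03 to 0.04). Igfbp7 had 2934 CPM (2897 to 2971) and 1885 CPM (1855 to 1915) in fibroblast-like cells, 1.56-fold lower, with a log2 change of -0.64 (-0.67 to -0.61). The fibroblast level of Igfbp7 was 35.1% and 40.2% of the smooth muscle level, far over the 3.32% and 4.06% of the smooth muscle markers. The median fibroblast-like cell had 28.5 and 17.3 Igfbp7 UMIs per 10000, and 1149 of 1481 case cells (77.6%) lay under the control median. Igfbp7 was lower in the case group in all 4 clusters, by log2 changes from -0.58 to -0.05. In cluster 6 the interval included 0 (-0.14 to 0.03, with 1913 and 1843 CPM). The class change of -0.64 was larger than that in any of the 4 clusters.

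**Figure D4:**
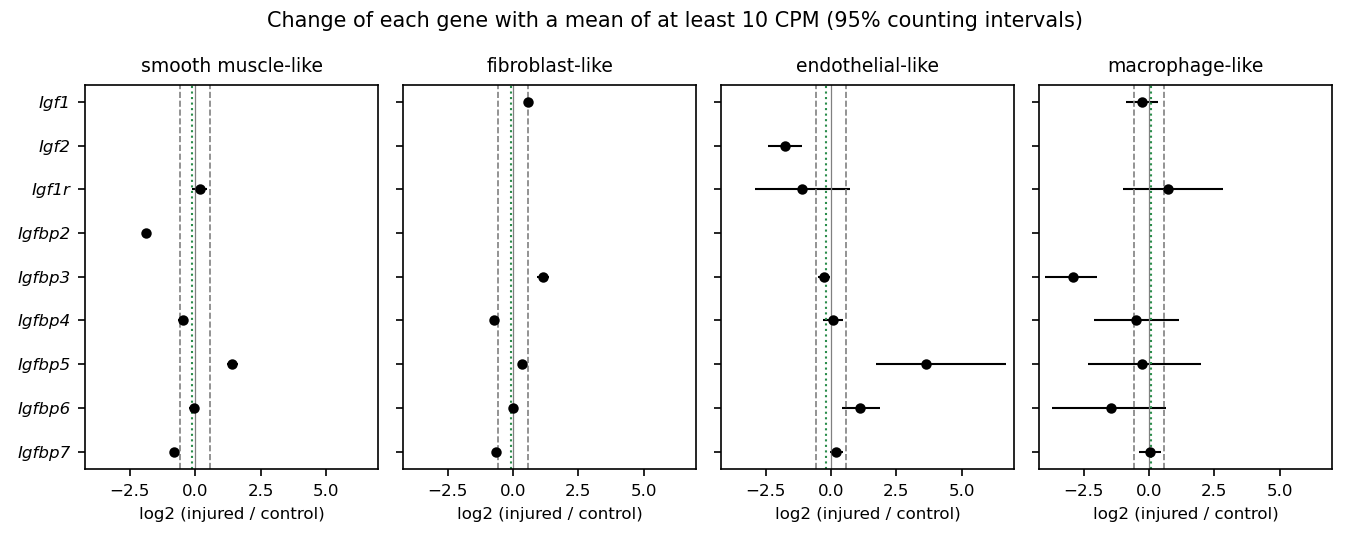
Log2 ratio of CPM in the injured over the control artery for each gene with a mean of at least 10 CPM in 4 classes, with exact 95% intervals for counting error, grey dashed lines at 1.5-fold and a green dotted line at the median of all genes. Igfbp2 and Igfbp7 lay under the 1.5-fold line in smooth muscle-like cells, as did Igfbp4 and Igfbp7 in fibroblast-like cells, while Igfbp3 lay over it.

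Cluster 5 was the largest among control (263 cells) and cluster 6 among case fibroblast-like cells (423 cells), so levels of the class also follow which clusters each library filled. Igf1 was higher in the case group in clusters 6 (511 and 947 CPM) and 7 (305 and 472 CPM), but 442 and 391 CPM in cluster 4 and 247 and 242 CPM in cluster 5. Fibroblast-like cells were also split by Pi16, a marker of adventitial fibroblasts that was also among the gating markers, and by Postn (periostin, a matrix protein of activated fibroblasts), both after thinning to 1000 UMIs. Pi16-positive cells were 457 of 739 control (61.8%) and 506 of 1481 case fibroblast-like cells (34.2%), and Postn-positive cells 16 (2.17%) and 142 (9.59%).

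Igfbp5 had 4419 and 7757 CPM in Pi16-positive and 2007 and 2628 CPM in Pi16-negative cells of the control and case group, 2.20 and 2.95 times as much in Pi16-positive cells. Igfbp4 was likewise higher in Pi16-positive cells, with 1361 and 984 CPM against 931 and 566 CPM. Igfbp3 went the other way, with 10.4 and 33.0 CPM in Pi16-positive and 57.6 and 79.0 CPM in Pi16-negative cells. Igf1 had 315 and 377 CPM in Pi16-positive and 357 and 554 CPM in Pi16-negative cells. For these 4 genes the direction between the groups was the same on both sides of the Pi16 split.

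Postn-positive case cells had 749 CPM of Igf1 against 460 CPM in Postn-negative case cells (417 and 330 CPM in the control group). They had less Igfbp4 (369 against 755 CPM) and less Igfbp7 (991 against 1998 CPM). Igfbp3 had 242 CPM (169 to 335, 36 UMIs) in the 16 Postn-positive control cells and 162 CPM (137 to 191) in the case cells. Postn-negative cells had 24.5 and 50.4 CPM of Igfbp3. The higher class level of the case group was thus seen in Postn-negative cells. In Postn-positive cells the value was lower in the case group, but the intervals overlapped, so no direction is read there. A further split took cells with at least 5 Gfpt2 UMIs after thinning, 91 control and 243 case cells. In them Igf1 had 266 CPM (238 to 295) and 280 CPM (255 to 306), against 343 and 548 CPM in the other cells. Igfbp3 had 49.5 CPM (38.1 to 63.2) and 61.5 CPM (50.3 to 74.6) in them, against 24.5 and 63.4 CPM.

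**Figure D5:**
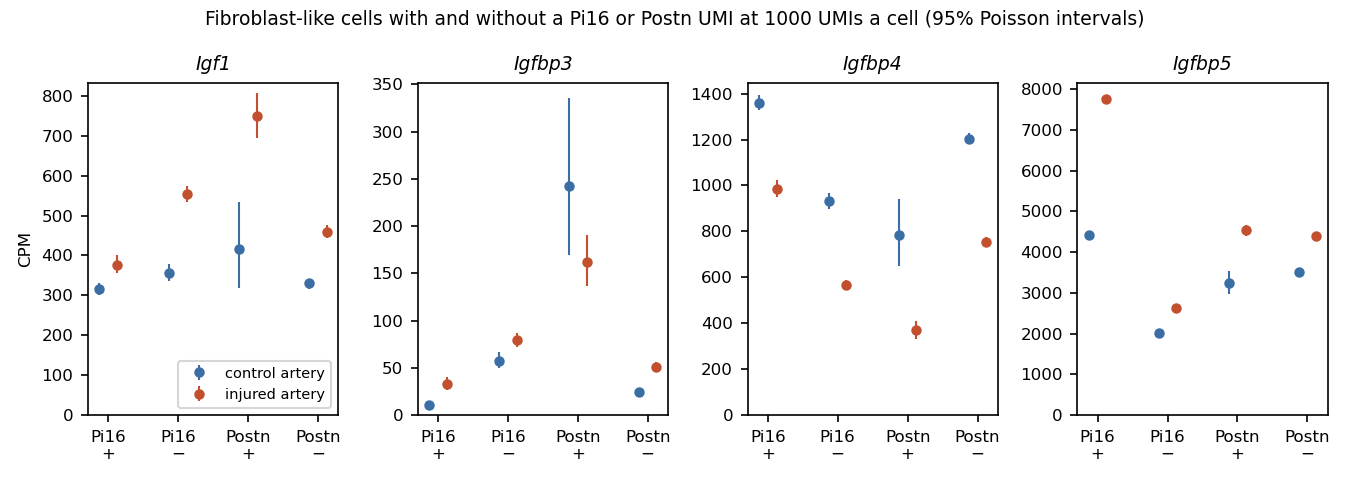
CPM of Igf1, Igfbp3, Igfbp4 and Igfbp5 in fibroblast-like cells with and without a Pi16 or a Postn UMI at 1000 UMIs per cell, for the control artery (blue) and the injured artery (red), with 95% Poisson intervals. Igfbp5 was highest in Pi16-positive cells of the injured artery (7757 CPM) and, among these splits, Igf1 in Postn-positive cells of the injured artery (749 CPM).

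In endothelial-like cells 7 of the 9 genes had a mean of at least 10 CPM. Igfbp5 and Igfbp6 were higher and Igf2 and Igf1r lower by 1.5-fold or more, and the background among 6898 genes was 17.8% higher and 32.3% lower. With classes taken from whole clusters in place of single cells, both higher values turned, with 256 and 187 CPM for Igfbp5 (log2 change of -0.46) and 144 CPM in both groups for Igfbp6 (-0.01). The Igf1r change rests on 6 and 7 UMIs, and its interval of -2.91 to 0.74 includes 0. The median log2 change was 0.07 over the 7 genes and -0.21 over all genes. Igfbp3 was highest in this class, with 512 CPM (446 to 585, 217 UMIs) in the control and 424 CPM (386 to 465, 453 UMIs) in the case group. Within cluster 10 it had 572 and 609 CPM, and within cluster 12, which made up more of the case cells, 41.9 CPM (2 UMIs) and 174 CPM.

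Igfbp5 had 2 UMIs in the control and 62 in the case group (4.72 and 58.1 CPM), and 58 of the 62 were in cluster 12, which held only 7 control cells. Igfbp6 had 47.2 CPM (20 UMIs) and 101 CPM (108 UMIs), mostly in cluster 10 (50.5 and 163 CPM). In this class Igfbp6 was 2.55% and 5.45% of its fibroblast level, over the 1.45% and 0.878% of the fibroblast markers, while Igfbp5 was 0.135% and 1.32%. The fibroblast markers summed to 765 and 383 CPM in endothelial-like cells, and the part of free RNA in the levels of both genes was not tested. Igfbp7 had 458 and 523 CPM, with 415 and 309 CPM in cluster 10 and 796 and 816 CPM in cluster 12. Its control level was 5.48% of the smooth muscle level, no more than the 5.65% of the smooth muscle markers, and its case level 11.2% against 5.19%.

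In macrophage-like cells 7 genes had a mean of at least 10 CPM, of which Igf1r was higher and Igfbp3 and Igfbp6 lower, beside 25.0% of 5809 genes higher and 18.6% lower. The median log2 change was -0.28 over the 7 genes and 0.06 over all genes. Igfbp3 had 170 CPM (127 to 225) in the control and 22.5 CPM (11.6 to 39.3) in the case group, a log2 change of -2.92 (-3.97 to -1.99) from 50 and 12 UMIs. It was found in 17 of 36 control cells, at most 11 UMIs in a cell, and in 10 of 94 case cells, at most 2. Endothelial markers summed to 17.0 and 45.0 CPM in these cells, and the part of free RNA in the Igfbp3 level was not tested. Igfbp6 rested on 6 and 4 UMIs and Igf1r on 4 and 12. Igfbp7 had 252 and 255 CPM, 3.02% and 5.44% of the smooth muscle level, near the 3.55% and 4.61% of the smooth muscle markers.

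In Schwann-like cells Igfbp7 had 1007 CPM (820 to 1223, 101 UMIs) in the control and 1807 CPM (1616 to 2015, 325 UMIs) in the case group, 1.80-fold higher, with a log2 change of 0.84 (0.52 to 1.18). It was found in 18 of 22 and 47 of 58 cells. With classes taken from whole clusters the levels were 1636 and 1891 CPM, a log2 change of 0.21, which does not reach 1.5-fold. The levels of 1007 and 1807 CPM were 12.1% and 38.5% of the smooth muscle level, over the 5.68% and 7.32% of the smooth muscle markers. The summed smooth muscle markers were 1465 and 1518 CPM in these cells, and the summed fibroblast markers 1934 and 4471 CPM. The fibroblast markers were thus higher in the case group too, and their part in the Igfbp7 level was not tested. The other 8 genes had 0 to 16 UMIs per library in this class.

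Of the 308 cells with both smooth muscle and fibroblast markers, 25 control and 78 case cells were among those flagged for the highest doublet scores. The number flagged, 40 control and 191 case cells in all, was set by library size. The 308 cells had 5964 and 3680 CPM of Igfbp7, 605 and 333 CPM of Igfbp4 and 641 and 1522 CPM of Igfbp5. The cluster with the most of the control cells was cluster 14 (56 of 129), which held only 2 case cells, and for the case cells it was cluster 1 (29 of 179), so the libraries are not compared for these cells. All 3 values lie between the levels of smooth muscle-like and fibroblast-like cells of the same library. Igfbp2 had 85.1 and 14.9 CPM in these cells.

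A list of 43 other genes held genes of the IGF pathway and 8 genes whose proteins only share the IGF-binding domain. They were followed in smooth muscle-like and fibroblast-like cells, and 40 were listed in the matrix. Of these, 24 had at least 10 CPM in smooth muscle-like cells, and 0 were higher and 6 lower by 1.5-fold, beside 5.42% and 14.9% of all genes, with a median log2 change of -0.20 against -0.13 over all genes. In fibroblast-like cells 23 were counted, 0 were higher and 3 lower, beside 6.35% and 13.8% of all genes, with a median of -0.12 against -0.08. The fibroblast share of lower genes is near the background. In smooth muscle-like cells 3 of the 6 lower genes came from the 4 counted genes that only share the domain. Of the counted pathway genes there, 2 of 14 signalling genes, 1 of 3 protease genes and 0 of 3 receptor and clearance genes were lower. Igf2r, which clears IGF2 from the cell surface, had 119 and 85.7 CPM in smooth muscle-like and 142 and 103 CPM in fibroblast-like cells, and the scavenger receptor gene Lrp1 348 and 297 CPM and 708 and 605 CPM. Among signalling genes the adaptor Grb14 (44.7 and 29.7 CPM) and the kinase Akt1 (77.0 and 50.6 CPM) were lower in smooth muscle-like cells. Irs2 had 233 and 274 CPM in smooth muscle-like and 221 and 271 CPM in fibroblast-like cells, and Pik3r1 148 and 107 CPM and 138 and 121 CPM.

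Htra1, a secreted protease that can cut binding proteins, was lower in both classes, with 469 and 277 CPM in smooth muscle-like and 490 and 306 CPM in fibroblast-like cells. Adamts1 had 243 and 311 CPM and 322 and 363 CPM. The CCN genes share the IGF-binding domain by sequence and encode matrix-associated signalling proteins. In smooth muscle-like cells Ccn3 had 7377 CPM in the control and 4157 CPM in the case group, a log2 change of -0.83 (-0.84 to -0.81) and the same value as that of Igfbp7. Ccn1 (446 and 264 CPM) and Ccn5 (20.4 and 8.49 CPM) were also lower, and Ccn2 had 2110 and 1461 CPM. In fibroblast-like cells Ccn3 had 387 and 468 CPM, and Ccn5 (199 and 97.6 CPM) and Kazald1 (92.2 and 38.5 CPM), another gene with this domain, were lower.

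Of the pathway list, Igfals, other ligand-binding genes such as Vtn, and the genes of Igf2 mRNA binding had few UMIs in both classes. Igfals, the partner of Igfbp3 in blood, had 1 and 3 UMIs in smooth muscle-like and 2 and 5 in fibroblast-like cells. Vtn had 28 and 44 UMIs in fibroblast-like cells, and Igf2bp2 42 and 64 in smooth muscle-like cells. Igf2bp3 had 5 and 1 UMIs in smooth muscle-like and 0 in fibroblast-like cells.

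Finally, genes with the most similar profile were looked for among 4959 genes, as Pearson's r of log2(CPM + 10) over 12 profiles, which were the 5 classes and the cells with both markers in each library. The 12 profiles share libraries and are not independent, so r is a description. Igfbp4 was closest to Fbln1 (fibulin 1, a matrix protein), with r = 0.990, and Igfbp7 to Niban1 (0.978), Col15a1 (0.973) and Arhgef25 (0.967). Fbxl22 (0.952) and Susd5 (0.95) were among the genes closest to Igfbp2. Igf1 was closest to Lpl, lipoprotein lipase (0.959), Dpp7 (0.95) and Xdh (0.944). Igf2 was closest to the endothelial gene Ramp2 (0.978), Ackr4 (0.971) and Cytl1 (0.964). This likeness is one of class sums, and Igf2 had only 47 control and 35 case UMIs in endothelial-like cells. Within these cells Ackr4 had 43 control and 34 case UMIs in cluster 10, against 0 and 5 in cluster 12. Igf2 lay mostly in cluster 12.

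Igfbp5 was closest to Taf4b (0.970), AABR07044388.2 (0.969) and Scara5 (0.966), and Igfbp6 to Bicc1 (0.976), Rnf144a (0.968) and Pdgfrl (0.966). For Igf1r (Scaf11 at 0.869, Snx12 at 0.853, Anxa11 at 0.848) and Igfbp3 (Slc30a4 at 0.895, Itpr2 at 0.866) the nearest genes were less close. Rnf144a (0.962) and Cthrc1 (0.957) followed Fbln1 for Igfbp4. Among the 9 genes themselves Igfbp4 and Igfbp6 were the most alike (r = 0.96), then Igfbp5 and Igfbp6 (0.89), while Igfbp2 and Igfbp5, the chromosome neighbours, had r = 0.03. Igfbp3 and Igfbp7 had r = -0.72.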

How the data were processed

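Single-cell RNA of 1 control and 1 case library was analysed. The deposited values are UMI counts, whole numbers that had not been normalized. The matrix header gives software version 3.1.0, and the submitters' processing notes name Seurat and the genome build Rnor_6.0. Barcodes were kept with at most 20% mitochondrial UMIs, log10 UMIs and genes within 2 SD of the library mean, genes within 3 robust SD of a fit on UMIs, and at least 1000 UMIs.

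For the classes, the mean log level (per 10000 UMIs) of each marker list was divided by its 99.5th percentile. A cell entered a class with a score of at least 0.35 and 1.5 times the next one. These limits were chosen once the data were known. The Leiden clusters (resolution 0.8, 2000 variable genes, 30 components, 20 neighbours, seed 1) were built without the 9 genes, and gave 17 clusters. Scrublet scored doublets, which were not removed. The highest scores of each library were flagged at an assumed rate of 0.8% per 1000 kept cells, so a larger share was flagged in the case library. No count model was run, since each group has 1 library. UMI sums have exact Poisson intervals, ratios an exact interval of the binomial split, shares Clopper-Pearson intervals, all at 95.0%. Where a count is 0, the limit is the upper end of its Poisson interval.

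The genes, marker and pathway lists were chosen with earlier results of these data known. All 9 genes are named. Of the pathway list, genes past 1.5-fold with at least 30 UMIs are named, and otherwise the 2 highest of each sub-list. Of the similar genes, the 3 nearest with at least 50 CPM in some profile are named, except a few that are not reported here. The genes of the endothelial clusters were picked after their values were seen. Promoters came from RefSeq (GRCr8), where all 9 genes matched. The alternatives changed the UMI and mitochondrial limits, doublets, gate, clusters, depth, scaling (TMM of edgeR 4.0.16 in R 4.3.3) and the CPM limit. Restricting cells to 4000 to 10000 UMIs was added after seeing the data. Python 3.11.15 was used with scanpy 1.11.5, numpy 2.4.6, leidenalg 0.10.2, scipy 1.17.1, matplotlib 3.10.9 and pandas 2.3.3. The ratios between groups and their counting intervals were tested on simulated class sums with known changes. The other steps were not tested in this way.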

Additional observations from a re-analysis of the deposited data

Results flagged for a closer look

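Igfbp3 differed in direction between classes. In fibroblast-like cells the case group had more of it, and in macrophage-like cells less, and the log2 changes lay 4.07 apart. Igfbp7 was higher in the case group in Schwann-like cells and lower in smooth muscle-like and fibroblast-like cells, with log2 changes 1.67 and 1.48 apart. With 1 library per group these differences were not tested. The macrophage-like value rests on 50 control and 12 case UMIs, and the Schwann-like value on 22 control and 58 case cells. With classes from clusters, the log2 change of Igfbp7 in Schwann-like cells was 0.21 in place of 0.84.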

How the results depend on the processing

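Of 27 changes of the 9 genes that were followed, 14 passed 1.5-fold. Of these, 7 passed it in the same direction and 11 had the same sign under every one of the 10 alternatives that gave a value. Among the 7 were Igf1r (6 and 7 UMIs) and Igf2 (47 and 35 UMIs) in endothelial-like cells. The alternatives draw on the same few UMIs there, so they do not measure the counting error of these 2 changes. Over these alternatives the log2 change in smooth muscle-like cells ran from -1.98 to -1.28 for Igfbp2, from -0.86 to -0.71 for Igfbp7 and from 0.32 to 2.42 for Igfbp5, and in fibroblast-like cells from 0.70 to 1.39 for Igfbp3, from -1.08 to -0.69 for Igfbp4 and from -0.80 to -0.57 for Igfbp7. Igf1 in fibroblast-like cells ran from 0.34 to 0.64 and passed 1.5-fold in 2 of 10. With the stricter gate 5 genes in place of 3 passed in macrophage-like cells, and Igfbp6 turned to 0.17 there. With classes from clusters, Igfbp5 (-0.46) and Igfbp6 (-0.01) turned in endothelial-like cells. When only genes of at least 100 CPM were counted, 1 gene passed in smooth muscle-like cells (3 without that limit), 0 in endothelial-like cells (4 without it) and 0 in macrophage-like cells, because fewer genes were counted. Otherwise the cause was not tested. TMM scaling moved the median log2 change of all genes in smooth muscle-like cells from -0.13 to -0.00, and in endothelial-like cells from -0.21 to 0.04. The class with the highest level was the same in every alternative for all genes but Igf1r. For Igf2 in the control group that class level rests mostly on 2 cells. Depth limits Igf1r, Igf2 and the classes of few cells. No paired analysis was possible because each group has 1 library.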
